A study of Mus musculus with 5 samples.

Results

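The 43 genes described here encode the machinery that copies DNA and the regulators that commit a cell to doing so: the replicative helicase, the proteins that license and fire replication origins, the DNA polymerases with their clamp and clamp loader, the enzymes that supply deoxynucleotides, and cyclin E and E2F factors of the G1/S transition. They were taken from a list of symbols that was chosen with earlier results of these data known. Each gene was represented by the probe set with 1 gene symbol that had the highest mean over the arrays. All 43 had such a probe set, out of 18194 genes so represented on the arrays. The samples were 5 biological replicates of 1 group: GFP-positive cells that flow cytometry recovered from the lungs of SPC-GFP pups at P2 (postnatal day 2), dissociated with trypsin and EDTA. The pups came from crosses between SPC-GFP and outbred ICR mice. SPC stands for surfactant protein C, which Sftpc encodes and which marks alveolar type 2 cells, so the GFP is taken here to follow the Sftpc promoter, which the labels do not spell out. Pups were selected for green lungs before dissociation, and the labels do not say whether a replicate was 1 pup or a pool. Titles and source names call the cells alveolar type 2 cells, whereas the design text calls them ciliated. With 1 group there was no treatment, genotype or age to compare. The comparisons were each gene against the background of its array, and the replicates against each other. The p-values of the first comparison weigh mean signal over background against the spread of these samples. Those of the second concern that spread itself. Precision is limited by there being 5 arrays.

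As background, replication origins are licensed in G1, when the origin recognition complex, Cdc6 and Cdt1 load the ring of Mcm2 to Mcm7 onto DNA. Origins fire in S phase, when the kinase of Cdc7 and Dbf4 and the cyclin-dependent kinases bring Cdc45 and the GINS complex to that ring and so switch on the helicase. Most genes of this machinery are targets of the E2F factors, which are held by retinoblastoma-family proteins in resting cells and are freed by G1 cyclin kinases, so their RNA is abundant in cycling cells and low in resting ones. In the newborn lung, alveolar type 2 cells still divide while they mature.

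The promoters of these genes are shown first, because E2F sites are the feature that textbook accounts give them in common. RefSeq promoter windows (GRCm38.p6) of 300 bases, from 250 before to 50 after an annotated start, were held for 36 of the 43 genes. They were searched on both strands for 4 spellings of an E2F site, TTTCCCGC, TTTGGCGC, TTTCGCGC and TTTGCCGC, which can overlap each other. A match was found for 15 of the 36 genes (41.7%), against 704 of 27025 genes with a window (2.60%). A match is a match of letters and does not show that a factor binds. In 9 genes a match lay before the start, and 100 bases around the first such match are given 5′ to 3′ on the strand of the gene, with matches in capitals.
Mcm5 (chr8:75109316-75109415, plus strand): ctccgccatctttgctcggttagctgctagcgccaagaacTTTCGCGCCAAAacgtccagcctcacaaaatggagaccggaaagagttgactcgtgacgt
Mcm6 (chr1:128359756-128359855, minus strand): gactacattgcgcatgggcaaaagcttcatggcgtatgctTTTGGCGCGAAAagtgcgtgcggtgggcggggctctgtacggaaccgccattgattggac
Mcm7 (chr5:138171989-138172088, minus strand): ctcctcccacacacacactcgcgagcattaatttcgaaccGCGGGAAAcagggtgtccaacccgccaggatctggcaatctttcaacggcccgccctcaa
Orc1 (chr4:108579354-108579453, plus strand): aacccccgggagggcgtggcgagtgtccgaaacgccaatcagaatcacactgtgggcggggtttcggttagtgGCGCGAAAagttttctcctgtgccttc
Cdc6 (chr11:98907973-98908072, plus strand): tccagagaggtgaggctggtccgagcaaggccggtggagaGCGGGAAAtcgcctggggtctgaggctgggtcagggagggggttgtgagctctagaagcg
Gins3 (chr8:95633459-95633558, plus strand): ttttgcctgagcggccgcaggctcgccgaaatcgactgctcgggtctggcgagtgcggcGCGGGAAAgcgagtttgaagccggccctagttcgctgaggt
Pola1 (chrX:93632234-93632333, minus strand): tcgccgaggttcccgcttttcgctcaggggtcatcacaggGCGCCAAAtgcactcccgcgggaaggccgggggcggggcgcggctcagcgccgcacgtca
Rfc3 (chr5:151651209-151651308, minus strand): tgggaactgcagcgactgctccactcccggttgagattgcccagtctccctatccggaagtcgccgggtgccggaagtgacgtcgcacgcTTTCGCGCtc
Uhrf1 (chr17:56304088-56304187, plus strand): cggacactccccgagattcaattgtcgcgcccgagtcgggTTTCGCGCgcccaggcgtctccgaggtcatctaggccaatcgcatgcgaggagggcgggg
In Mcm5 and Mcm6 the capitals are a pair of overlapping matches on opposite strands, which join into a run of 12 bases. In Mcm7, Orc1, Cdc6, Gins3 and Pola1 the match is on the opposite strand and therefore reads as its reverse complement. The other 6 genes with a match (Mcm3, Cdt1, Pole2, Pold1, Lig1 and E2f2) had it after the start. Among genes of G2 and mitosis, 1 of 17 with a window (5.88%) held an E2F match, while 12 of 17 (70.6%) held TTTGAA, the core of the cell cycle homology region, against 7 of 36 replication and G1/S genes (19.4%) and 20.2% of all genes. The CCAAT box was found in 15 of those 17 mitosis genes (88.2%), in 20 of the 36 replication and G1/S genes (55.6%) and in 41.1% of all genes. No test was made of these shares.

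Deposited values were taken as log2 signals. Probe sets differ in how strongly they bind, so a higher signal of 1 gene than of another does not mean a higher RNA level. All 43 genes lay above background, set per array at the 95th percentile over 77 genes of chemosensory receptors, which lung cells are taken not to use. It ran from 5.43 to 5.70. In limma's one-sided test, with Benjamini-Hochberg adjustment and a threshold of 0.05, 43 of 43 were called, where 74.9% of 18117 tested genes were. Each gene was above background on each of the 5 arrays. The smallest margin over background on any array was 0.87 log2 units, for Tyms, the thymidylate synthase gene, in replicate 3. Mean signals spanned 6.75 to 13.02. When the background came instead from 41 genes typical of other organs, 36 of 43 were called, against 53.8% of all genes. Mcm10, Orc1, Cdc6, Cdc45, Gins3, Tyms and E2f1 were not called there. That background is stricter, since 14 of its 41 genes were themselves above the receptor background.

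**Figure D1:**
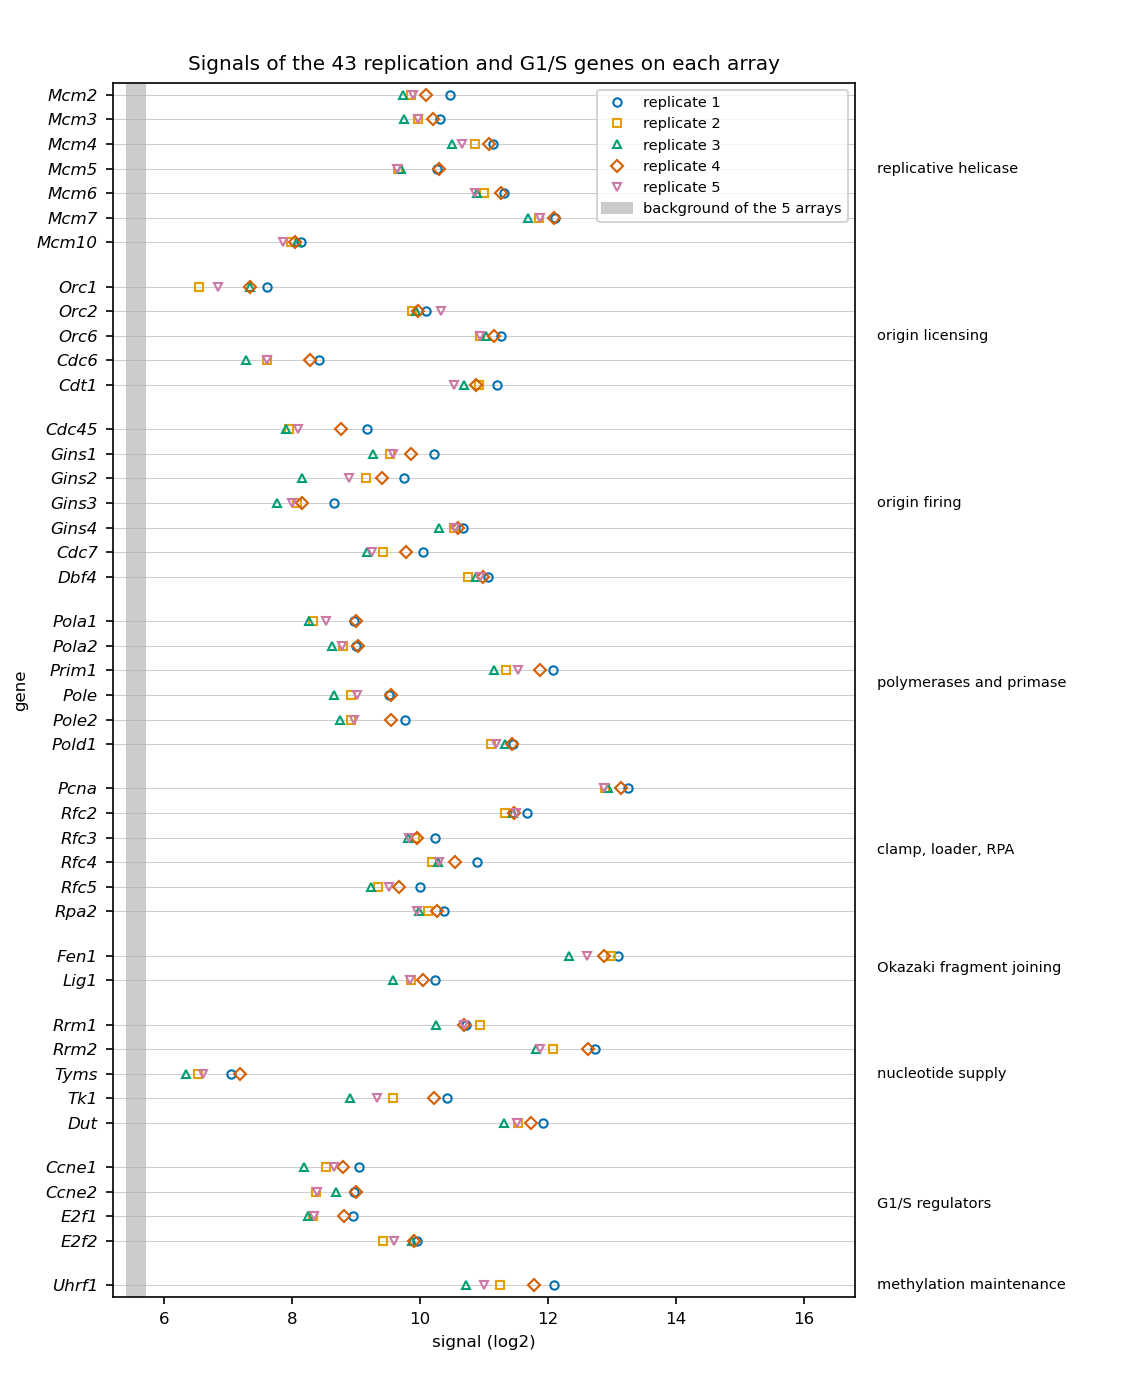
Signal (log2, horizontal axis) of each of the 43 genes on the 5 arrays, with genes down the page by role, a symbol per replicate and the range of the array backgrounds in grey. Every gene lies above the grey band of 5.43 to 5.70, and replicate 1 (circles) is the highest point for 35 of them.

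The genes differed between replicates in a shared order. Replicate 1 gave the highest value for 35 of the 43 genes, where it was highest for 22.4% of the 13563 genes above background, and replicate 3 gave the lowest for 28, where it was lowest for 24.6%. Replicate 1 exceeded replicate 3 in 43 of 43 genes, against 49.6% of all genes above background, with a median difference of 0.61 log2 units or 1.53-fold. In an order looked for after the values were seen, replicates 1 and 4 were the 2 highest in 36 of the 43 genes, against 15.5% of all genes. Replicate 2 exceeded replicate 4 in 3 of the 43 genes and replicate 3 exceeded it in 2, against 52.2% of all genes for each. Replicate 2 exceeded replicate 5 in 20 of the 43 genes, near the 44.3% of all genes. Both extremes together, highest in replicate 1 and lowest in replicate 3, were found in 23 genes, against 8.70% of all genes. This pair of arrays was also looked for after the values were seen. Of the other arrays, replicate 4 was highest in 6 genes (13.5% of all genes), replicate 2 in 1 (16.2%), replicate 5 in 1 (21.2%) and replicate 3 in 0 (26.6%). Replicate 2 was lowest in 8 genes (19.9% of all genes) and replicate 5 in 7 (14.7%). Replicates 1 and 4 were lowest in 0 of the 43 genes, against 22.8% and 18.0% of all genes.

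**Figure D2:**
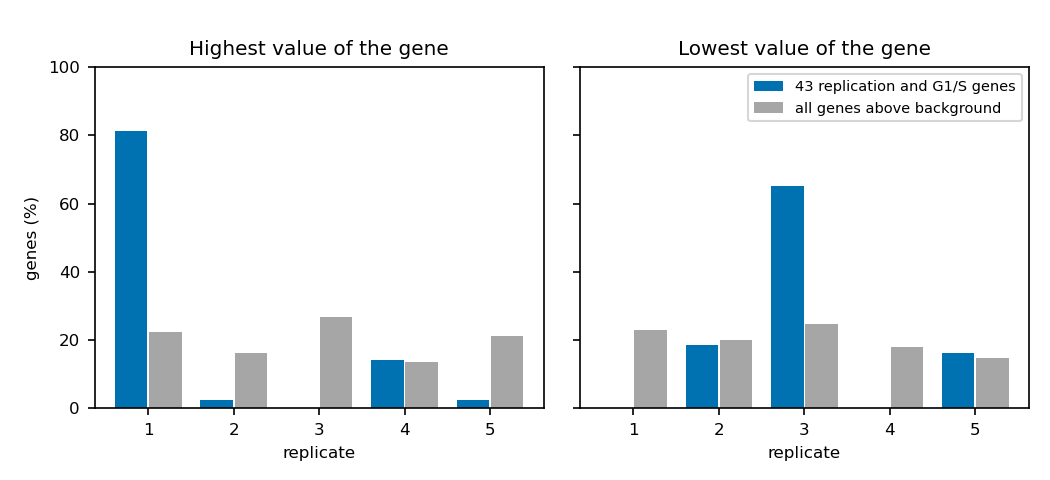
Percentage of genes (vertical axis) with their highest value (left) or lowest value (right) in each replicate, for the 43 replication and G1/S genes (blue) and all genes above background (grey). Replicate 1 holds the highest value of 35 of the 43 genes and replicate 3 the lowest value of 28.

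To sum up an array in 1 value, each gene was set against its own mean, these differences were averaged over the 43 genes, and the same difference for the median gene above background was taken off. This list score stood at 0.37, −0.13, −0.28, 0.22 and −0.16 for replicates 1 to 5. Its range was 0.65 in log2, which is 1.57-fold (SD 0.28). The median over all genes moved by at most 0.02 on any array. Without replicate 1 the range was 0.50, and without replicate 3 it was 0.53. Replicate 4 was then highest in 36 genes (without replicate 1), and without replicate 3 the lowest value lay in replicate 2 for 23 genes and in replicate 5 for 19. Shares of all genes on the remaining arrays were not worked out for these counts. In bulk RNA, fewer cells in cycle and less of these transcripts per cell cannot be told apart.

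None of the genes passed the test of spread between replicates over all genes. That test set the variance of a gene against the variance limma fits for genes of its signal (one-sided F test, Benjamini-Hochberg over 13563 genes), and adjusted p-values of the 43 genes ran from 0.857 to 0.998. Over all genes 0 passed as well. On 4 and 3.86 degrees of freedom the test has little power after adjustment, so a count of 0 does not show that the replicates were alike. At an unadjusted p under 0.05 there were 6 of 43 genes (Gins2, Prim1, Fen1, Rrm2, Tk1 and Uhrf1), against 5.62% of all genes, or 762. The variance was above the fitted one for 40 of 43 genes, against 50.0% of all genes. The median range over arrays was 0.69 log2 units (1.61-fold) for the 43 genes and 0.38 (1.30-fold) for all genes above background. Ranges of at least 0.5 log2 units were seen in 30 genes (34.7% of all genes) and of at least 1 in 7 (9.86% of all genes), namely Orc1, Cdc6, Cdc45, Gins2, Pole2, Tk1 and Uhrf1.

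**Figure D3:**
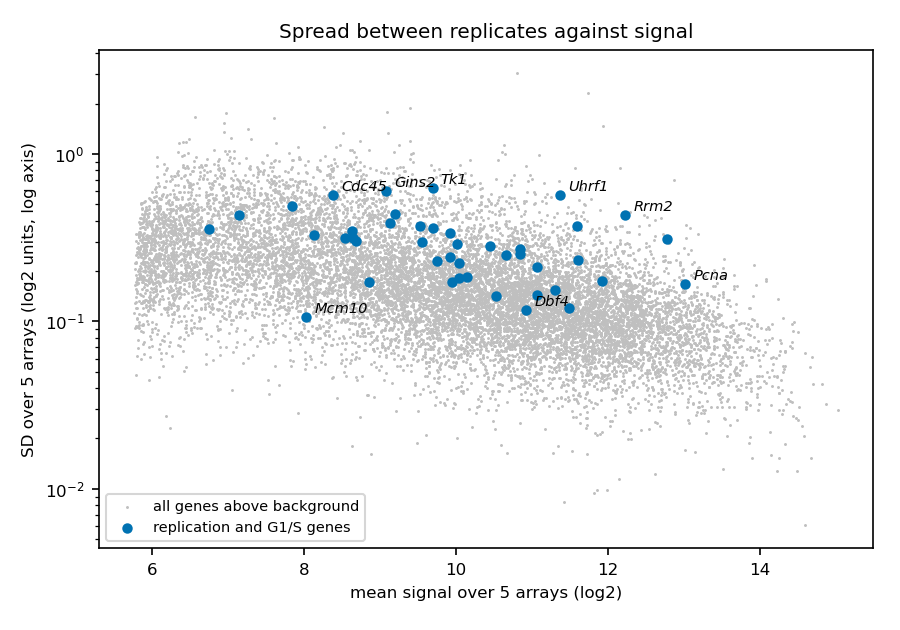
SD over the 5 arrays (log2 units, log axis) against mean signal (log2) for the 43 genes (blue) and all genes above background (grey). The SD of 37 of the 43 genes is above the median SD of all genes (0.154), with Tk1 and Gins2 at the largest SD among them (0.628 and 0.601), and 0 genes passed the adjusted spread test.

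The helicase genes shared replicate 1 as their high array, with Mcm5 highest in replicate 4 as the exception. Their median range of 0.57 log2 units lay below that of the 43 genes and above that of all genes. Mcm2 read 10.47, 9.86, 9.74, 10.10 and 9.90 in replicates 1 to 5 (10.01 ± 0.289, mean ± SD, n = 5), and Mcm4 read 11.15, 10.86, 10.50, 11.08 and 10.66. Mcm5 read 10.27, 9.66, 9.71, 10.30 and 9.64, with replicates 1 and 4 well apart from the other 3. Mcm3, Mcm6 and Mcm7 averaged 10.05 ± 0.223, 11.07 ± 0.212 and 11.93 ± 0.175, with replicate 1 highest in each. Other Mcm3 probe sets ranged over 0.76 to 1.23 log2 units, where the chosen one had 0.57. Other Mcm2, Mcm4 and Mcm6 probe sets above background ranged less than the chosen ones, at 0.59, 0.56 and 0.29 log2 units. Those of Mcm7 lay on both sides of the chosen one. Mcm10 joins the helicase as it is switched on and is not a subunit of the ring. Its chosen probe set had the smallest range of the 43, at 8.14, 7.99, 8.08, 8.06 and 7.86. Other Mcm10 probe sets ranged over 0.39 log2 units and, with a mean of 5.52 close to background, over 0.63. The score of the 7 genes was 0.29 in replicate 1 and −0.21 in replicate 3. Mcm5 had 2 other probe sets above background, with ranges of 1.30 and 1.02 log2 units where the chosen one had 0.66, and both were highest in replicate 1 and lowest in replicate 3.

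The licensing genes were less uniform. Cdc6, the loader that brings the helicase ring to origins, read 8.43, 7.61, 7.29, 8.29 and 7.61, so that replicates 1 and 4 stood above the other 3. Cdt1, its partner in loading, read 11.20, 10.92, 10.69, 10.88 and 10.53, with its lowest value in replicate 5. Another Cdt1 probe set above background read 9.19, 8.76, 8.51, 8.91 and 8.54, lowest in replicate 3, so the lowest array depended on the probe set. Orc1, the origin recognition subunit whose level cycles in mammalian cells, read 7.62, 6.55, 7.36, 7.34 and 6.85, lowest in replicate 2 and not in replicate 3. Orc2, a constitutive subunit, read 10.09, 9.87, 9.94, 9.97 and 10.33, the 1 gene of the 43 that was highest in replicate 5. A further Orc2 probe set was also highest in replicate 5, at 7.89. Another was highest in replicate 1, at 7.83, and lowest in replicate 3, at 7.30. Orc6 had 11.07 ± 0.144.

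On the chosen probe sets, the genes of origin firing had the largest score range of the roles with more than 1 gene, 0.89 log2 units. Cdc45, the helicase cofactor, read 9.18, 7.96, 7.90, 8.77 and 8.09, a 2.42-fold range. Gins2, a subunit of the GINS complex, read 9.75, 9.16, 8.16, 9.42 and 8.90, a 3.00-fold range that was the widest of the 43 chosen probe sets. Both were highest in replicate 1 and lowest in replicate 3. Gins1 read 10.23, 9.54, 9.27, 9.86 and 9.59. Gins3 read 8.66, 8.08, 7.77, 8.16 and 8.01, so that replicate 1 stood alone above the other 4 arrays. Gins4 had a range of 0.38 log2 units, from 10.29 in replicate 3 to 10.67 in replicate 1. The parts of the firing kinase differed in range. The catalytic gene Cdc7 read 10.04, 9.42, 9.17, 9.78 and 9.25. Its activating subunit gene Dbf4 read 11.06, 10.75, 10.87, 10.99 and 10.94. All 7 genes of this role were highest in replicate 1. The other Gins2 probe set gave 9.60, 9.13, 8.23, 9.30 and 8.81, in the same order of arrays.

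**Figure D4:**
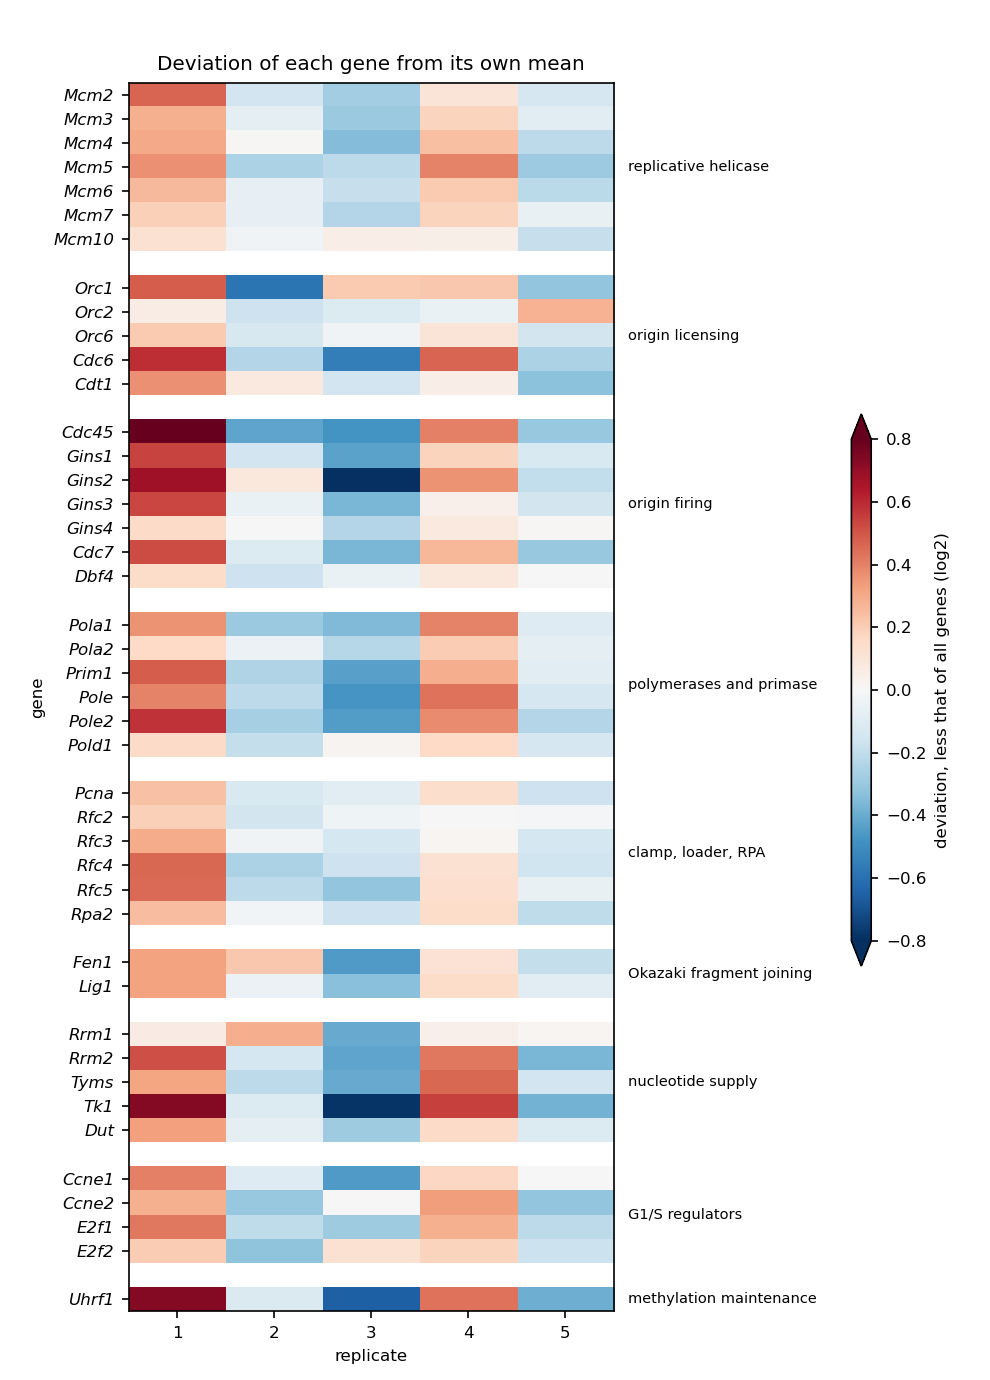
Deviation of each of the 43 genes from its own mean on each array, centred on the median gene above background (log2, colour scale clipped at −0.8 and 0.8), with genes by role down the page. Values in replicate 1 are above 0 for 43 of 43 genes and in replicate 4 for 42, with Orc2 as the exception, and replicate 3 holds the lowest value of 28 genes.

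Among polymerase genes, primase and the catalytic and accessory subunits of polymerase epsilon varied most. Prim1, which encodes the primase that lays down RNA primers, read 12.08, 11.35, 11.16, 11.87 and 11.53. Pole, the catalytic subunit of the leading-strand polymerase, read 9.52, 8.92, 8.67, 9.55 and 9.02, and Pole2 read 9.77, 8.93, 8.76, 9.56 and 8.98. In these 3 genes the values of replicates 1 and 4 did not overlap with those of the other 3 replicates. The same held for the other genes of this role, Pola1, Pola2 and Pold1. Replicates 1 and 4 were the 2 highest in 83.7% of the genes described here, against 15.5% of all genes above background. Pola1 read 8.98, 8.33, 8.28, 9.01 and 8.54 and Pola2 had 8.85 ± 0.171, both subunits of the priming polymerase and both highest in replicate 4. Pold1, the catalytic subunit of the lagging-strand polymerase, ranged over 0.34 log2 units, lowest in replicate 2.

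On the chosen probe sets, the sliding clamp, its loader and Rpa2 ranged less. Pcna, the clamp that tethers polymerases to DNA, read 13.25, 12.90, 12.94, 13.14 and 12.87, a 1.30-fold range. The loader gene Rfc4 read 10.89, 10.19, 10.28, 10.55 and 10.31. Another loader gene, Rfc5, read 10.00, 9.34, 9.24, 9.67 and 9.51. In both, replicate 1 was highest and replicate 4 next. Rfc2 and Rfc3, of the same loader, had 11.49 ± 0.120 and 9.95 ± 0.172. Rpa2, a subunit of the single-strand binding protein, had 10.15 ± 0.184. Other probe sets of Rfc3 and Rpa2 ranged over 0.75 and 0.96 log2 units, where the chosen ones had 0.43 and 0.42. Those of Rfc2 ranged over 0.23 and 0.26, where the chosen one had 0.33, and that of Rfc4 over 0.73 against 0.70. On the chosen probe sets all 6 genes were highest in replicate 1, and the score range of 0.47 log2 units was the smallest of the 9 roles. Of the Okazaki fragment genes, the flap nuclease gene Fen1 read 13.09, 12.99, 12.33, 12.88 and 12.61. The ligase gene Lig1 read 10.23, 9.87, 9.58, 10.04 and 9.85. On this Fen1 probe set replicate 2 lay with replicates 1 and 4. The other Fen1 probe set read 9.85, 8.84, 8.71, 9.59 and 9.16, with replicate 2 beside replicate 3, so the position of replicate 2 depended on the probe set.

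Nucleotide supply held both a wide and a divergent gene. Tk1, the thymidine kinase of the salvage pathway, read 10.42, 9.58, 8.91, 10.22 and 9.33, a 2.85-fold range. Rrm2, the subunit of ribonucleotide reductase made in S phase, read 12.74, 12.09, 11.81, 12.64 and 11.88, whereas Rrm1, the large subunit, which is more stable through the cycle, read 10.72, 10.95, 10.26, 10.69 and 10.69. Rrm1 was thus the 1 gene with its highest value in replicate 2, and its other probe set above background was highest there too, at 8.59. Other Rrm2 probe sets ranged over 1.25 and 1.91 log2 units, where the chosen one had 0.92, so the size of its range depended on the probe set. The dUTPase gene Dut read 11.93, 11.53, 11.32, 11.74 and 11.52. Its other probe set ranged over 1.43 log2 units, where the chosen one had 0.60. Tyms read 7.05, 6.53, 6.35, 7.19 and 6.61, while 3 further probe sets for it had means of 6.05, 5.03 and 3.70, of which those at 5.03 and 3.70 lay below the mean background. With the median over probe sets, Tyms was not called above background (limma adjusted p = 0.0912), nor with the 99th percentile as background (limma adjusted p = 0.0524).

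The regulators of the G1/S step followed the same arrays. Ccne1, which encodes a cyclin E, read 9.04, 8.54, 8.20, 8.80 and 8.67. E2f1, an activator of S-phase genes, read 8.95, 8.33, 8.26, 8.81 and 8.35. Both were highest in replicate 1 and lowest in replicate 3. Ccne2, the other cyclin E gene, read 8.97, 8.38, 8.69, 9.01 and 8.39. E2f2, another activator, read 9.95, 9.43, 9.88, 9.92 and 9.60. In Ccne2 and E2f2 the lowest value was in replicate 2. Replicate 3 lay close to replicates 1 and 4 in E2f2 and between them and the other arrays in Ccne2. The other E2f2 probe set read 9.81, 9.39, 9.17, 9.75 and 9.39, with replicate 3 lowest, so the position of replicate 3 depended on the probe set. Uhrf1, which carries DNA methylation over to the new strand, read 12.10, 11.25, 10.72, 11.79 and 11.00, a 2.60-fold range.

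Other probe sets of the same genes mostly gave the same arrays at the extremes. Of 51 further probe sets, which belonged to 34 genes with more than 1, 42 had a mean above the mean background, for 31 genes. Of these 42, replicate 1 was highest in 32 and replicate 3 lowest in 29, and replicate 1 exceeded replicate 3 in 40. They were hybridised with the same RNA, so they check the probe sets and not the samples. Of the 43 chosen probe sets, 15 were of types whose names mark possible hybridisation to related transcripts. The share of genes highest in replicate 1 was also 35 of 43 without such types where another probe set existed.

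Members with and without an E2F match were set side by side, with no test. The range over arrays had a median of 0.66 log2 units in the 15 genes with a match and 0.70 in the 21 with a window and no match. The extremes were 0.34 and 1.38 in genes with a match, and 0.28 and 1.51 in those without.

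Other genes of the pathway were read from lists of names, likewise chosen with earlier results of these data known. Of 28 other replication genes measured, 28 lay above background, 0 passed the adjusted spread test, and the score was 0.21, −0.06, −0.21, 0.16 and −0.10 in replicates 1 to 5. Replicate 1 was highest in 18 of the 28 and lowest in 2, against 22.4% and 22.8% of all genes above background. Replicate 3 was lowest in 17 and highest in 3, against 24.6% and 26.6%. Orc3, Orc4 and Orc5, subunits of the origin recognition complex, averaged 11.50 ± 0.121, 11.03 ± 0.0401 and 9.94 ± 0.0655, and Mcm8 had 7.45 ± 0.0818. Orc3 went the other way, lowest in replicate 1 (11.33) and highest in replicate 3 (11.62). Asf1b, a histone chaperone, read 10.72, 9.43, 8.87, 10.57 and 9.30, and the checkpoint mediator gene Clspn 9.17, 8.26, 7.85, 9.02 and 8.32. Ticrr, needed for origin firing, read 6.87, 6.43, 5.88, 7.09 and 6.43. These 3 genes were named for having the widest ranges of the list. In each, replicates 1 and 4 were the 2 highest, as in 15.5% of all genes above background.

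G1 cyclins, kinases, E2F factors and pocket proteins were above background in 17 of 17 genes, with scores of 0.18, −0.11, −0.08, 0.10 and −0.09. The D cyclins differed among themselves: Ccnd1 read 12.63, 12.06, 11.93, 12.41 and 12.08, Ccnd2 11.94, 12.37, 12.11, 12.06 and 12.17 and Ccnd3 11.26, 11.38, 11.55, 11.28 and 11.51. Ccnd1 was highest in replicate 1, Ccnd2 in replicate 2 and Ccnd3 in replicate 3. Cdk2, the kinase partner of cyclin E, had 10.57 ± 0.0936. The repressor gene E2f7, itself a target of E2F, read 8.76, 7.70, 7.61, 8.55 and 8.07. Its relative E2f8 read 10.10, 8.97, 8.58, 9.83 and 8.63. The E2F partner gene Tfdp1 read 12.55, 11.91, 11.95, 12.28 and 11.93, and the pocket protein gene Rbl1, which encodes p107, 11.07, 10.10, 10.26, 10.78 and 10.44. These 4 genes were named for a wide range or an unadjusted spread p under 0.05. All were highest in replicate 1 and next highest in replicate 4, where 15.5% of all genes had these arrays as the 2 highest.

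Genes of G2 and mitosis had the same order of arrays with a wider range. All 21 measured lay above background, and their score was 0.82, −0.28, −0.76, 0.63 and −0.41, spanning 1.58 log2 units (2.99-fold). The score range of the 43 replication and G1/S genes was 0.65 on the same scale, and the difference between the lists was not tested. Mki67, the proliferation antigen, read 11.86, 10.73, 10.40, 11.85 and 10.92. Top2a, a topoisomerase of dividing cells, read 11.51, 10.43, 10.07, 11.33 and 10.26. Cdk1, the mitotic kinase, read 11.62, 10.40, 9.99, 11.31 and 10.34. Replicate 3 was lowest in 21 of 21 genes and replicate 1 highest in 19, against 24.6% and 22.4% of all genes above background. Ccna2, cyclin A, read 11.05, 10.19, 9.74, 10.79 and 9.95, and the widest of the list, Tpx2, Cenpf and Ube2c, ranged over 4.14-fold, 4.07-fold and 3.81-fold. At an unadjusted p under 0.05, 20 of 21 genes were past the spread test, against 5.62% of all genes above background. After adjustment 0 were, as over all genes.

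**Figure D5:**
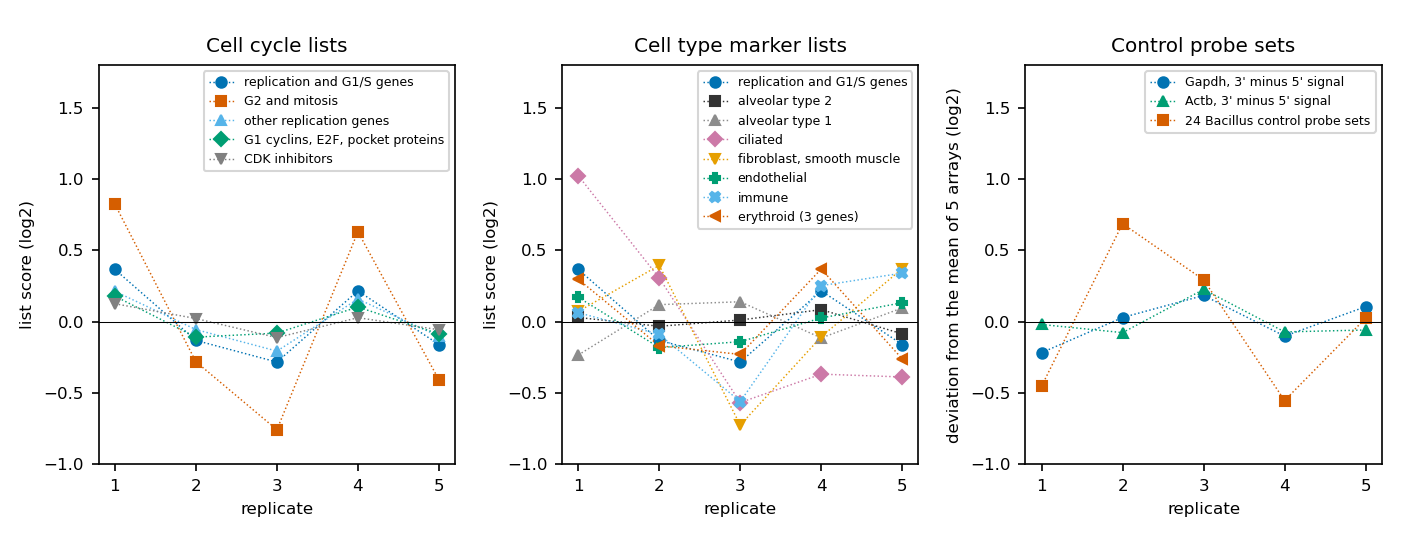
List score (log2) of cell cycle lists (left) and of cell type marker lists other than club (middle) on each array, and deviation of control probe sets from their mean over the arrays (log2, right), with dotted lines that join the points of a list. The replication and G1/S genes (0.37, −0.13, −0.28, 0.22 and −0.16) and the G2 and mitosis genes share replicates 1 and 4 as their high arrays, and the Gapdh 3′ minus 5′ difference is lowest in the same arrays.

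Markers of the labelled cells and of other lung cells were read on the same arrays. The 8 alveolar type 2 markers, among them Sftpc (14.67 ± 0.0533) and Sftpb (14.13 ± 0.0772), were all above background, with scores of 0.03, −0.03, 0.01, 0.08 and −0.09, so replicates 4 and 1 were highest by small margins. The 8 ciliated markers, which include Foxj1 and Ccdc39, were also all above it, at 1.02, 0.31, −0.57, −0.37 and −0.39 in replicates 1 to 5. They share replicate 1 with the replication genes and not replicate 4. The 6 alveolar type 1 markers scored −0.23, 0.12, 0.14, −0.11 and 0.10, lowest where the replication genes were highest. All markers measured of the club (4), fibroblast and smooth muscle (8), endothelial (7) and immune (8) lists were above background too. Club markers scored −0.23, 0.43, −0.62, −0.03 and 0.47. Most of that spread came from Scgb3a1, a secretoglobin gene named after its values were seen, at 8.50, 10.37, 6.61, 8.77 and 11.19, while Scgb1a1, Scgb3a2 and Cyp2f2 had ranges of 0.22 to 0.39 log2 units. Fibroblast and smooth muscle markers scored 0.07, 0.39, −0.72, −0.11 and 0.37. Endothelial markers scored 0.17, −0.18, −0.14, 0.03 and 0.13, and immune markers 0.06, −0.09, −0.56, 0.25 and 0.34. Replicate 3, the low array of 28 of the 43 replication and G1/S genes, was also lowest in 8 of 8 fibroblast and smooth muscle markers and in 7 of 8 immune markers. It was lowest in 24.6% of all genes above background. Replicates 1 and 4 were not the 2 highest scores in any of these 4 lists. Single markers could differ from their list. The immune markers S100a8 and Cd68 and the endothelial marker Kdr had these arrays as their 2 highest, as did 15.5% of all genes above background. S100a8 read 12.93, 11.82, 10.93, 12.86 and 12.26, a 3.98-fold range. Of 6 erythroid markers, read only on probe sets with 1 gene symbol, 3 lay above background (Alas2, Slc4a1 and Klf1) and 3 did not (Hba-a1, Epb42 and Rhag). The 3 scored 0.30, −0.17, −0.23, 0.37 and −0.26, with replicates 4 and 1 highest, as for the type 2 list and over a wider range. Slc4a1, the red cell anion exchanger, read 9.01, 7.66, 7.85, 9.22 and 7.76, and Klf1, an erythroid transcription factor named after its values were seen, read 6.07, 6.99, 6.26, 6.19 and 6.44, lowest in replicate 1 and highest in replicate 2. The part of these cell types in the order of the replication genes was not tested.

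Control probe sets differed between the same arrays. The 3′ minus 5′ difference of the Gapdh control, a measure of RNA length after amplification, was 1.27, 1.52, 1.67, 1.39 and 1.60 log2 units in replicates 1 to 5, lowest in replicates 1 and 4, where the replication genes were highest, and highest in replicate 3, where they were lowest. That of the Actb control was 0.60, 0.54, 0.84, 0.55 and 0.56, with replicate 3 apart from the rest. The 24 probe sets of Bacillus genes, designed for RNA that is added to a sample before labelling, averaged 8.12, 9.25, 8.86, 8.02 and 8.59, and all 24 were lowest in replicate 1 or 4. The bioB and bioC hybridisation controls averaged 12.73, 11.98, 11.78, 11.94 and 11.89, highest in replicate 1. The labels do not say whether or how such RNA was added, and the part of RNA quality or input in the order of the replication genes was not tested.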

How the data were processed

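Total RNA from 5 samples went through NuGEN Ovation amplification and biotin labelling for 1-colour Affymetrix arrays, per the labels' protocols. The deposited values run from 2.46 to 15.24 and were read as log2 signals on that ground. How the authors corrected and normalized them is not given in the sources used here. Of 45101 probe sets, 34958 had 1 gene symbol in a 2016 platform annotation. The 932 with several symbols were not used, so signal on probe sets shared by genes was not read. Signal over the array's background was tested against 0 with limma 3.58.1 under R 4.3.3 (mean-variance trend). Spread was tested against limma's fitted variance (trend, robust) on 4 and 3.86 degrees of freedom. Both fits ran over all genes and were also run on simulated data. There the variance of unchanged genes followed the signal alone, unlike in these data, so the simulation does not show how the adjusted spread test performs here. Alternatives covered the background, probe sets, normalization, variance model, filters and replicates. The members and all lists were chosen with earlier results of these data known. Every member could be named; of other pathway lists, the first 4 genes, the 3 of widest range, minority background calls and those at an unadjusted spread p under 0.05; of marker lists, the first 2 and those not called. Klf1, S100a8, Cd68, Kdr and the club markers Scgb3a1 and Cyp2f2 fall outside this rule and were chosen after their values were seen. Not all are given values.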

Additional observations from a re-analysis of the deposited data

How the results depend on the processing

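The count of genes above background was 42 with the 99th percentile and with the median over probe sets, 36 with organ-restricted genes as background, and 43 under the other alternatives run, each replicate left out included. The count past the adjusted spread test was 0 under every alternative run, with 4 to 8 genes at an unadjusted p under 0.05 and 4.80% to 5.94% of all genes. The range of the list score ran from 0.50 to 0.65 without each replicate, from 0.61 to 0.72 under the other alternatives, and was 0.66 when centred on 11565 genes of like signal and 0.38 without replicates 1 and 3 together, both added after seeing the data. Under alternatives likewise chosen after seeing the data, genes highest in replicate 1 numbered 32 to 41 and genes lowest in replicate 3 numbered 27 to 32. Shares of all genes were not worked out under these alternatives. No paired analysis was possible because there was 1 group. Arrays give no counts, so detection near background rests on the receptor genes chosen.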

Other observations

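Cyclin-dependent kinase inhibitors, which hold cells out of S phase, did not share 1 order of arrays. Of 7 measured, 6 lay above background, and Cdkn2a did not (5.34 ± 0.127, limma adjusted p = 1). Cdkn2c, which encodes p18, read 9.54, 8.64, 8.23, 9.23 and 8.92 in replicates 1 to 5, with replicates 1 and 4 highest and replicate 3 lowest, as in most replication genes. Cdkn2b, which encodes p15, read 10.41, 10.89, 11.11, 10.80 and 11.10, lowest in replicate 1 and highest in replicate 3. Cdkn1a, which encodes p21, had 11.62 ± 0.103, Cdkn1b, which encodes p27, 11.97 ± 0.141, and Cdkn1c, which encodes p57, read 10.74, 10.74, 10.50, 10.14 and 10.45. At an unadjusted p under 0.05, 0 of the 6 were past the spread test, against 5.62% of all genes above background. The scores of 0.13, 0.02, −0.11, 0.03 and −0.06 spanned 0.24 log2 units.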
